A study of Mus musculus with 3 samples.

Results

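The loci described here are the stretches of the mouse genome at which Cuffdiff gave an expression value but no gene symbol. They were taken separately from 2 deposited tables, each holding a pair of RNA-seq libraries, as the rows without a symbol that reached 1 FPKM or more in at least 1 library. FPKM is a fragment count corrected for transcript length and library size. Of 1154 rows without a symbol in the density table, 685 qualified, among 49850 rows in all, and of 1233 in the LPS table, 767 qualified, among 49971. The members were thus chosen by their FPKM, so their levels and ratios are descriptions with no test. The libraries came from RAW264.7, a mouse macrophage line grown out of an Abelson leukaemia virus tumour. HD+LPS were high density cells kept for 24 h in 500 ng/ml bacterial lipopolysaccharide, which was added 24 h after seeding. HD were high density cells without LPS, and LD were low density cells without LPS. The hours from seeding to harvest of LD are not stated, so density and culture time cannot be told apart in HD against LD. The study set HD against LD and HD+LPS against HD. With 1 library in each group there is no check by replicates, and no p-value was computed.

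Macrophages transcribe much DNA outside annotated genes. Active enhancers give off short enhancer RNAs, promoters also fire away from their gene, and polymerases run past gene ends. Processed pseudogenes are copies of mRNAs pasted back into the genome, and reads from the parent gene can land on them. In bulk RNA, fewer cells of a kind and less RNA per cell cannot be told apart.

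A few of the most abundant loci can be read from GENCODE M21 transcripts, which are on GRCm38, the build of the deposited positions. They are shown because the level of such a locus cannot be told apart from that of its near-identical copies. Each line gives the part inside the locus, 5′ to 3′ on the annotated strand, with capitals at the bases that differ from the gene named after it. The first is Gm24187 on chr13:9834469-9834524, minus strand, set against Gm23935. GENCODE labels both as predicted microRNA genes, and that label was not tested. The next ones are the processed pseudogenes Rps15a-ps2 on chr19:28742466-28742551, minus strand, set against Rps15a, and Gm6278 on chr16:85644538-85644691, plus strand, set against Rplp0. Both parents encode proteins of the ribosome. The last is the processed pseudogene Gm11223 on chr4:69925815-69926079, minus strand, set against Stmn1, which encodes the microtubule regulator stathmin.
Gm24187: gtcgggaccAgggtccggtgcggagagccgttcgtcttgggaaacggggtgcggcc
Rps15a-ps2: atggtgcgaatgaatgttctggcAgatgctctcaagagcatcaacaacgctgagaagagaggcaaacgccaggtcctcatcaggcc
Gm6278: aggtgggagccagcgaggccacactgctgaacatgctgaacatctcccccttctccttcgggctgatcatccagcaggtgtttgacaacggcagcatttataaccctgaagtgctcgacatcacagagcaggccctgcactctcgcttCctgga
Gm11223: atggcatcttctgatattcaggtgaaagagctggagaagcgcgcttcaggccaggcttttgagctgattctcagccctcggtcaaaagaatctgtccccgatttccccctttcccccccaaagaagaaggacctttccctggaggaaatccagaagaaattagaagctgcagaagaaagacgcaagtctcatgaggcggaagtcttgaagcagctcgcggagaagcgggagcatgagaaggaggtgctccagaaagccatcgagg

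The Gm11223 stretch matched Stmn1 over all 265 of its bases with 0 mismatches, and the other 3 stretches each held 1 mismatch against the gene they were compared with. At 90% identity over 90% of the length or more, the Rps15a-ps2 stretch matched 13 other GENCODE genes, the Gm6278 stretch 6, the Gm24187 stretch 5 and the Gm11223 stretch 1.

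Most loci without a symbol were weakly transcribed. Between 1 and 5 FPKM in the higher library lay 599 of the 685 density members (87.4%) and 621 of the 767 LPS members (81.0%). The median level was 1.52 FPKM in HD and 1.09 FPKM in LD, and with LPS 0.947 FPKM in HD+LPS and 1.40 FPKM in HD. Rows just above the limit included chr6:39314080-39315378, with 1.002 FPKM in HD and 0.3631 in LD. One just below it was chr5:91944163-91945411, with 0.997 FPKM in HD and 0.3808 in LD.

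Fragment numbers could be recovered because a single unbroken locus of 500 to 6000 bases has an FPKM that is a whole multiple of what 1 fragment is worth. Among values worth 1 to 20 fragments, 94.5% to 96.5% came out whole within 0.1. Over the 485 loci of the density table where both libraries allowed it, the median was 24 fragments in HD and 16 in LD, and 16 loci in HD and 74 in LD rested on 3 fragments or fewer. Over 533 loci of the LPS table it was 11 fragments in HD+LPS and 23 in HD, and 151 loci in HD+LPS and 44 in HD rested on 3 or fewer. Where a ratio below has a 95% interval, it is the exact binomial interval from these fragments and covers counting error only.

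Very short loci carried most of the members' summed FPKM. Members summed to 5.73% of all FPKM in HD and 2.90% in LD, and to 5.11% in HD+LPS and 5.72% in HD in the LPS table. The 6 highest held 87.8% of the members' FPKM in HD and 79.1% in LD, and 88.6% in HD+LPS and 89.8% in HD. All 15 members of 100 FPKM or more in the density table, and all 12 in the LPS table, were shorter than 500 bases, where fragments could not be recovered. Of the 6 highest density members by their higher library, all but the first are 98 to 227 bases long. That is below the fitted mean fragment length of 228 to 247 bases, so these shares of FPKM are not shares of fragments. The 98-base one, chr11:88894732-88894829, was listed at 0 in HD and at 2979 FPKM in LD.

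The highest, chr3:5860337-5860775, is 439 bases long and more than 100 kb from any row with a symbol. It had 17338 FPKM in HD and 5596 in LD, and 14356 FPKM in HD+LPS and 15791 in HD. A 227-base locus at chr6:3201365-3201591 had 11531 FPKM in HD and 3987 in LD, and 9000 in HD+LPS and 10542 in HD. The 223-base Gm24187 locus, chr13:9834302-9834524, had 3974 FPKM in HD and 830 in LD, and 2665 in HD+LPS and 3633 in HD. These loci stood higher in HD than in LD, by ratios of 3.10, 2.89 and 4.79, while HD+LPS lay below HD.

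Others of the 8 most abundant were the 173-base chr6:49236446-49236618, the 122-base chr1:102628206-102628327 and the 121-base chr16:17222326-17222446. They too were higher in HD, at 3811, 1931 and 1138 FPKM, against 1160, 730 and 436 in LD. With LPS their order varied: the first had 3850 FPKM in HD+LPS and 3493 in HD, the second 1412 in HD+LPS and 1778 in HD, and the third 997 in HD+LPS and 626 in HD. The pair of ribosomal protein pseudogenes ran differently. Gm6278 had 720 FPKM in HD and 719 in LD, and Rps15a-ps2 had 394 in HD and 581 in LD. With LPS, Gm6278 had 723 FPKM in HD+LPS and 636 in HD, and Rps15a-ps2 had 614 in HD+LPS and 362 in HD.

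Rows named for structural RNAs were also higher in HD than in LD, and with LPS they ran both ways. Rn45s, the ribosomal RNA precursor, had 7947 FPKM in HD and 1938 in LD, and 5046 in HD+LPS and 7005 in HD. Rn18s-rs5, an 18S ribosomal RNA copy, had 6450 FPKM in HD and 2333 in LD, and 5067 in HD+LPS and 5795 in HD. Rmrp, the RNA of the RNase MRP enzyme, had 65.1 FPKM in HD and 15.4 in LD, and 36.9 in HD+LPS and 58.9 in HD. Rn7sk, the RNA that holds back a transcription elongation factor, had 74.6 FPKM in HD and 22.4 in LD, and 128 in HD+LPS and 67.5 in HD. Rpph1, the RNA of RNase P, had 2.43 FPKM in HD and 1.26 in LD, and 2.65 in HD+LPS and 2.18 in HD. The part of these RNAs in the loci without a symbol was not tested.

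**Figure D1:**
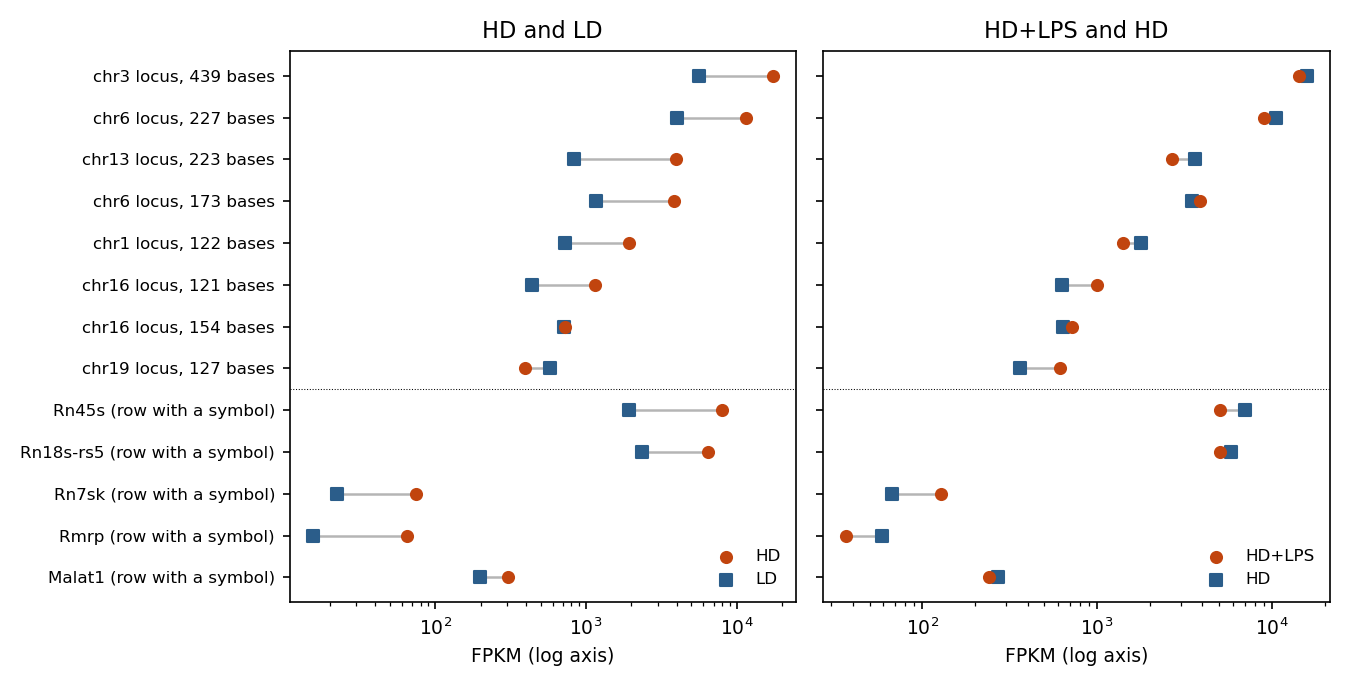
The 8 most abundant loci without a symbol found in both tables, above 5 structural or nuclear RNAs with a symbol, as FPKM on a log axis. Circles are HD (left) and HD+LPS (right), squares LD (left) and HD (right). At left 6 loci lie higher in HD, Gm6278 (chr16 locus, 154 bases) shows 720 in HD and 719 in LD, and Rps15a-ps2 (chr19 locus) lies lower in HD.

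Markers of the labelled cell were present. Of 10 macrophage markers 9 reached 1 FPKM in each library, and the exception, the mannose receptor Mrc1, was listed at 0 in HD and HD+LPS and at 0.033 FPKM in LD. Of 13 markers of fibroblasts, epithelium, lymphocytes and neutrophils, the only one to reach 1 FPKM was the neutrophil elastase gene Elane, at 1.54 FPKM in HD and 0.64 in LD, and 0.0954 FPKM in HD+LPS and 1.40 in HD. The summed level of those 13 was 1.69 FPKM in HD and 0.71 in LD, and 0.41 in HD+LPS and 1.53 in HD.

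The loci were short. Those with a position of their own had a median size of 1097 bases in the density table (n = 616) and 1018 in the LPS table (n = 686). Rows with a symbol and a position of their own had a median of 17720 and 17679 bases. The other 69 and 81 members share 1 deposited position with a further row, 29 and 31 of them with a named gene, so their listed size, up to 282562 bases, is that of the whole bundle and not their own. The shortest member was chr11:88894732-88894829, 98 bases long, listed at 0 in HD and at 2979 FPKM in LD.

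Against low density, more of these loci were higher in HD than lower. Of the 685, 113 (16.5%) were at least 2-fold higher in HD and 18 (2.63%) at least 2-fold lower, on the scale of log2((FPKM + 1)/(FPKM + 1)), which understates changes of low values. Among the 11044 rows with a symbol at the same limit, 388 (3.51%) were higher and 100 (0.905%) lower. The 2 kinds of row did not enter alike. Rows with a symbol, 48696 in all, are listed even at 0 in both libraries, while 1152 of the 1154 without a symbol were above 0. What this adds to the gap in shares was not tested. The median log2 ratio was 0.44 over the members and 0.01 over rows with a symbol. Rows with a symbol between 1 and 5 FPKM, the level of most members, were higher in 3.68% and lower in 1.21% of cases, with a median of 0.01. Named rows on loci of 500 to 6000 bases, nearer in size, were higher in 5.51% and lower in 2.19%, with a median of 0.16. When both libraries were scaled to the same FPKM sum without the 20 highest rows, which shifts HD by -0.249 on the log2 scale, 74 members were higher in HD and 25 lower, with a median of 0.28. On that scale rows with a symbol were higher in 2.07% and lower in 2.11%. At 5 FPKM or more 28 of 86 members (32.6%) were higher in HD and 5 (5.81%) lower, against 85 of 599 (14.2%) and 13 (2.17%) between 1 and 5 FPKM. Rows with a symbol at 5 FPKM or more were higher in 3.47% and lower in 0.817%. The shares also differed by size among members with a position of their own. Under 500 bases 28 of 71 were higher in HD and 6 lower (median 0.81). From 500 to 6000 bases 70 of 509 were higher and 10 lower (median 0.44), and over 6000 bases 3 of 36 and 1 (median 0.03). Level and size were not separated, as members of 5 FPKM or more had a median size of 406 bases.

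**Figure D2:**
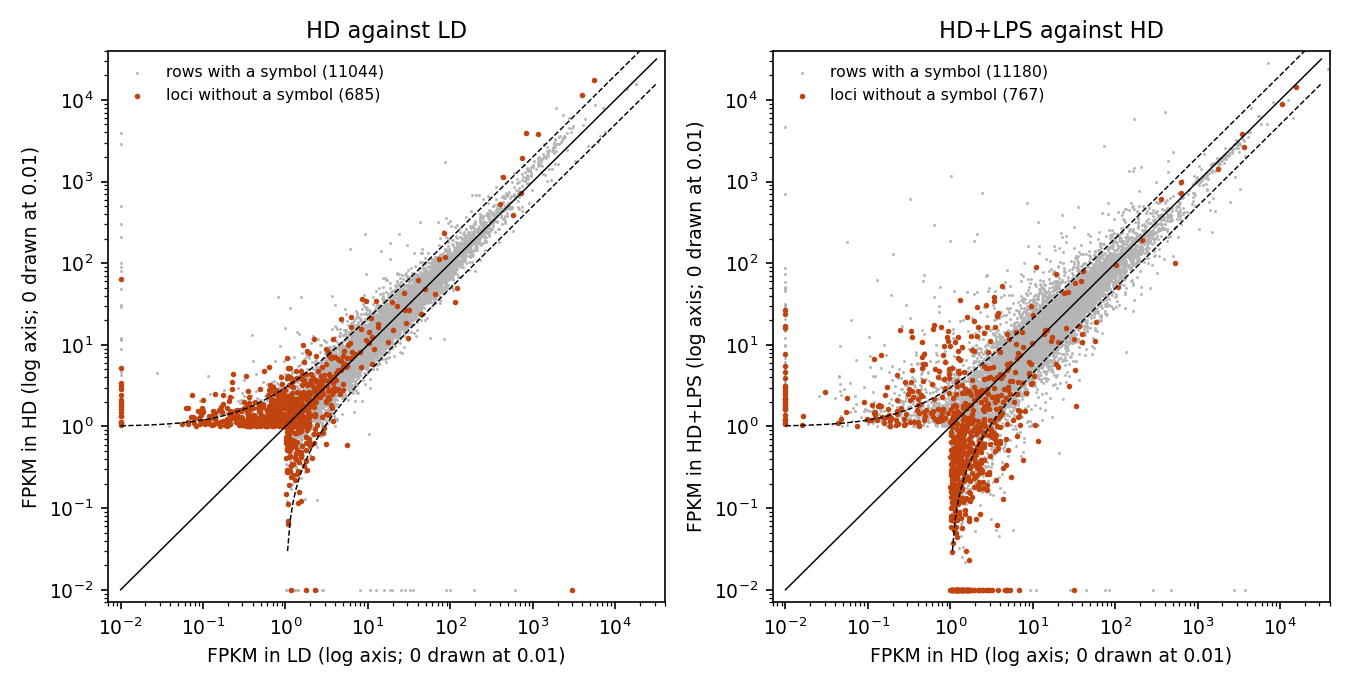
FPKM of every row of 1 FPKM or more, with HD against LD at left and HD+LPS against HD at right, both axes logarithmic and zeros drawn at 0.01. Red points are the 685 and 767 loci without a symbol, grey points rows with a symbol, the solid line marks equal levels and dashed lines the 2-fold limits with a pseudocount of 1 FPKM.

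Apart from the Gm24187 locus, the largest ratios among members of 5 FPKM or more seen in both libraries belonged to loci of 5.38 to 36.7 FPKM in HD. A locus at chr8:95628915-95630391 overlaps exons of the intergenic noncoding RNA gene Gm45702 and had 11.9 FPKM in HD and 2.19 in LD. It rested on 264 fragments in HD and 49 in LD, a ratio of 5.45 with a 95% interval of 4.00 to 7.55. Its neighbour Gins3, part of the DNA replication helicase, had 26.9 FPKM in HD and 24.2 in LD. The intergenic chr5:112127773-112129153, 6859 bases from the predicted gene Gm30032, had 5.38 FPKM in HD and 0.626 in LD, on 110 and 13 fragments, a ratio of 8.60 (4.82 to 16.7).

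Further loci of this set lay close to genes of known function. Past the 3′ end of Mfng, a fringe enzyme that adds sugar to Notch receptors, chr15:78751387-78751676 had 36.7 FPKM in HD and 8.43 in LD. Mfng itself had 48.3 FPKM in HD and 47.1 in LD. A 542-base locus 5590 bases from Vav1, a signalling exchange factor of blood cells, had 21 FPKM in HD and 4.77 in LD, on 112 and 27 fragments, a ratio of 4.40 (2.87 to 6.97). Vav1 had 31.5 FPKM in HD and 35.3 in LD, lower in HD where the locus was higher. The locus at chr2:180369807-180370478 had 34.5 FPKM in HD and 9.59 in LD (ratio 3.59, 2.78 to 4.70), and the noncoding gene 379 bases away, B230312C02Rik, had 43.4 FPKM in HD and 15.1 in LD.

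Loci lower in HD were few. The noncoding RNA gene Gm10101, at the shared promoter of the ubiquitin ligase gene Cgrrf1, holds chr14:46831644-46831968, with 0.592 FPKM in HD and 5.65 in LD. Cgrrf1 had 16.3 FPKM in HD and 14.5 in LD. An intergenic 8340-base locus at chr7:42972710-42981049 had 12.2 FPKM in HD and 30.7 in LD. A 156-base locus 50 bases past the pseudogene Tpt1-ps3 had 49.5 FPKM in HD and 121 in LD, while Tpt1, the parent gene, had 2356 FPKM in HD and 1736 in LD.

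At 0 in LD were 18 members and at 0 in HD 4, beside 33 and 24 of the 11044 rows with a symbol. Cuffdiff may list a locus at 0 that it could not estimate. The highest member listed at 0 in LD, chr9:123923115-123923303, had 63.8 FPKM in HD over 189 bases. Short loci just upstream of Smchd1, a chromatin protein of the silent X chromosome, and of Xpot, the exporter of tRNA, had 5.18 and 3.13 FPKM in HD and were listed at 0 in LD. In the authors' deposited table, whose test had no replicates, 2 of the 685 members were called, at a q-value of 0.0217. Rows with a symbol, counted at any level, were called in 30 of 48696 cases. The members called were the Gm24187 locus and chr13:23657888-23659786. The second lies 2218 bases from the histone gene H2bc4 and had 1.92 FPKM on 57 fragments in HD, with 0 in LD, while H2bc4 had 17.8 FPKM in HD and 7.62 in LD.

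With LPS the loci spread in both directions. Of the 767, 138 (18.0%) were at least 2-fold higher in HD+LPS and 224 (29.2%) at least 2-fold lower. Of the 11180 rows with a symbol 977 (8.74%) were higher and 656 (5.87%) lower. Here too the kinds of row entered differently, with 1232 of the 1233 rows without a symbol above 0, and its part in the gap was not tested. Their log2 ratios had a median of -0.59 over the members and 0.03 over rows with a symbol. Named rows between 1 and 5 FPKM were higher in 8.10% and lower in 7.47%, with a median of -0.05, and those on loci of 500 to 6000 bases higher in 8.53% and lower in 11.8%, with a median of -0.25. Listed at 0 were 74 members in HD+LPS and 30 in HD, beside 40 and 62 of the 11180 rows with a symbol.

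The direction with LPS differed between levels. Of the 621 members between 1 and 5 FPKM in the higher library, 75 (12.1%) were at least 2-fold higher in HD+LPS and 190 (30.6%) lower. Of the 146 at 5 FPKM or more, 63 (43.2%) were higher and 34 (23.3%) lower, and the median was 0.70 (log2). Most of that excess lay at 5 to 20 FPKM, with 48 of 101 higher and 21 lower (median 0.86). At 20 FPKM or more 15 of 45 were higher and 13 lower (median 0.18). Rows with a symbol at 5 FPKM or more were higher in 8.93% and lower in 5.39%. With a pseudocount of 5 FPKM in place of 1, which weighs the stronger loci, 47 members were higher in HD+LPS and 17 lower.

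**Figure D3:**
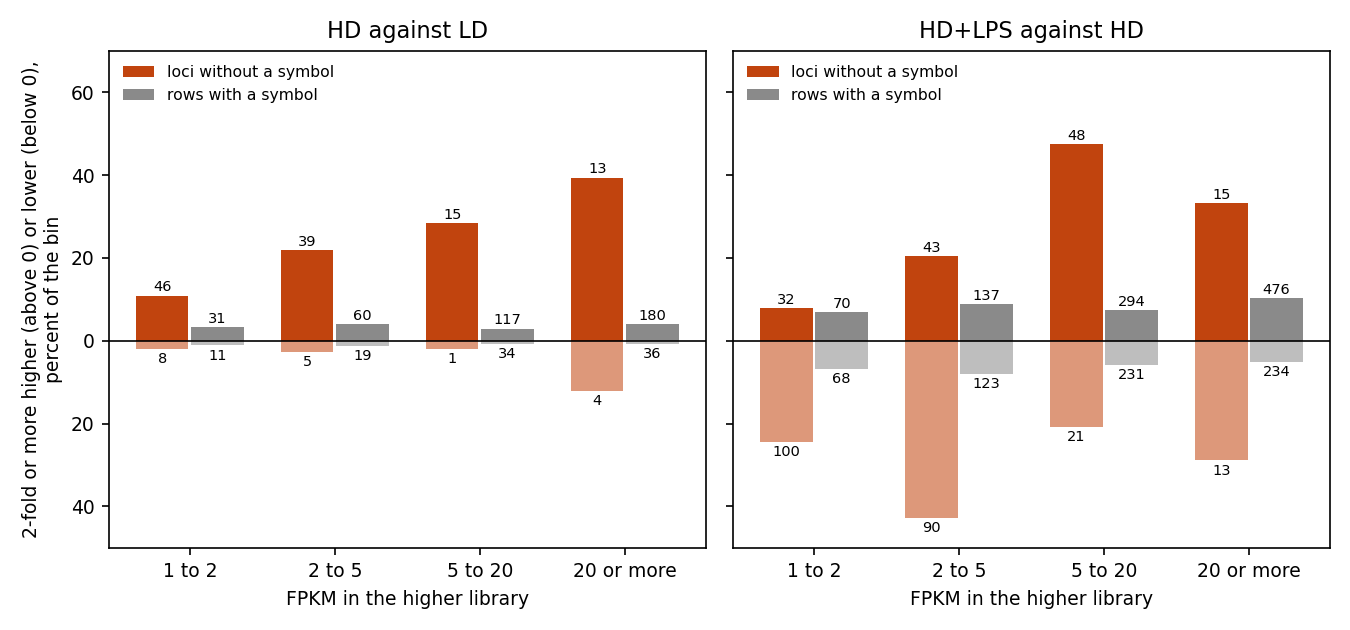
Percent of loci without a symbol (red) and of rows with a symbol (grey) that were at least 2-fold higher (above 0) or lower (below 0), in bins of FPKM in the higher library, with counts at the bars. In the comparison of HD+LPS with HD, 100 members of 1 to 2 FPKM were lower and 32 higher. From 5 to 20 FPKM 48 were higher and 21 lower, and at 20 FPKM or more 15 were higher and 13 lower.

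Among members of 5 FPKM or more seen in both libraries, the 8 largest log2 ratios ran from 3.29 to 4.00. The largest was chr4:132971359-132971876, which begins 2218 bases before Fgr, a Src-family kinase of myeloid cells. It had 35.8 FPKM in HD+LPS and 1.3 in HD, on 156 and 7 fragments, a ratio of 27.6 (13.1 to 69.9). Fgr was weak, at 1.34 FPKM in HD+LPS and 2.35 in HD. A locus at chr1:138885740-138886291 had 14.7 FPKM in HD+LPS and 0.33 in HD, on 72 and 2 fragments, a ratio of 44.5 (11.9 to 375). Its nearest named row, 1700019P21Rik, was listed at 0 in both. Near Depdc5, a brake on the nutrient sensor mTORC1, chr5:32862245-32862875 had 22.2 FPKM in HD+LPS and 1.58 in HD, a ratio of 14.1 (7.81 to 28), and Depdc5 had 6.79 FPKM in HD+LPS and 5.63 in HD. The Depdc5 locus was chosen after its values were seen.

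The 4 highest members listed at 0 in HD each lie within 5 kb of a GENCODE gene. One at chr3:151764037-151764298, 1145 bases from the interferon-induced gene Ifi44l, had 16.1 FPKM in HD+LPS. Ifi44l had 21.2 FPKM in HD+LPS and 0.321 in HD. One 565 bases from Vrk2, a kinase gene, had 16.9 FPKM in HD+LPS, with Vrk2 at 12.3 in HD+LPS and 10.1 in HD. The others, at chr8:70006164-70006387 and chr1:34564224-34564448, had 26.8 and 24.1 FPKM in HD+LPS, and their nearest named rows were listed at 0 in both libraries.

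At the lower end the Mfng locus had 1.77 FPKM in HD+LPS and 33.5 in HD, and the Gm45702 locus 0.666 FPKM in HD+LPS and 11.6 in HD, on 12 and 266 fragments, a ratio of 0.0572 (0.0292 to 0.102). Mfng had 34.9 FPKM in HD+LPS and 43.5 in HD. A 507-base locus beginning 68 bases before Ssbp4, a gene for a single-stranded DNA binding protein, had 0.237 FPKM in HD+LPS and 5.40 in HD, on 1 and 28 fragments, a ratio of 0.044 (0.00108 to 0.266). The noncoding gene AC166102.1 holds chr17:24779649-24781342, with 1.04 FPKM in HD+LPS and 10.6 in HD.

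The stathmin pseudogene was among the loci lower with LPS. The printed Gm11223 stretch lies in a locus listed at 0 in HD+LPS, with 31.6 FPKM in HD, and a second locus 141 bases past the end of the pseudogene, chr4:69925224-69925488, had 101 FPKM in HD+LPS and 534 in HD. Stmn1, which the stretch matches base for base, had 51.5 FPKM in HD+LPS and 205 in HD. In the density table the locus on the stretch had 34.6 FPKM in HD and 12.6 in LD, the second locus 528 in HD and 395 in LD, and Stmn1 226 in HD and 188 in LD.

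With LPS, 3 of the 767 members were called in the authors' deposited table at a q-value of 0.0174. Rows with a symbol, counted at any level, were called in 42 of 48738 cases. Lower were chr4:152832774-152833994, listed at 0 in HD+LPS with 2.85 FPKM on 55 fragments in HD, and the locus near Gm30032, listed at 0 in HD+LPS with 4.90 FPKM on 110 fragments in HD. Higher was chr15:28035361-28036140, before the pseudogene Gm19883, with 4.62 FPKM on 39 fragments in HD+LPS and 0 in HD.

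Matching by position linked the tables. Of the density members 513 (74.9%) overlapped a member of the LPS table, and of the LPS members 526 (68.6%) overlapped a density member. HD is in both tables, scaled separately, so its values for 1 locus differ. Over 232 loci of identical position HD was lower in the LPS table by a median log2 difference of -0.14, and 165 of the 185 loci with fragments recovered in both had the same number. Where the bounds of a locus differ the gap can be wide: the 121-base chr16 locus above is 131 bases long in the LPS table, with 1138 FPKM in HD in the density table and 626 in HD in the LPS table. The locus past Tpt1-ps3 is 156 and 400 bases long, with 49.5 and 5.18 FPKM in HD. Because HD stands on opposite sides of the 2 comparisons, their values are set side by side without a relation being drawn.

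Of 436 pairs of loci matched between the tables, each with a position of its own, 56 were past 2-fold in both comparisons. In 47 of these the locus was higher in HD than in LD and lower in HD+LPS than in HD. Another 7 were higher in both comparisons and 1 was lower in both. The last 1 was lower in HD than in LD and higher in HD+LPS than in HD. Examples of the 47 come first. Near Smchd1 the locus had 5.18 FPKM in HD with 0 in LD, and 0.337 in HD+LPS with 4.72 in HD. The locus by Xpot had 3.13 FPKM in HD with 0 in LD, and 0 in HD+LPS with 2.85 in HD. Close to Efna1, an ephrin ligand gene, a 659-base locus had 1.35 FPKM in HD with 0 in LD, and 0 in HD+LPS with 1.22 in HD. Efna1 had 12.8 FPKM in HD and 4.48 in LD, and 2.29 in HD+LPS and 11.6 in HD. Near Socs5, a suppressor of cytokine signalling, chr17:87152338-87152704 had 5.13 FPKM in HD and 1.14 in LD, and 0 in HD+LPS and 4.68 in HD.

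Among the 7 loci higher both in HD than in LD and in HD+LPS than in HD were those by Vav1, Map4k3 and Bin2. The locus by Vav1 had 73.6 FPKM in HD+LPS and 18.9 in HD, beside 21 in HD and 4.77 in LD. By Map4k3, a kinase of the mTORC1 and stress pathways, a short locus had 88.9 FPKM in HD+LPS and 10.8 in HD, and 11.8 in HD and 3.81 in LD. Upstream of Bin2, a membrane-curving protein of white blood cells, the locus had 16.5 FPKM in HD+LPS and 3.47 in HD, on 382 and 102 fragments, a ratio of 4.75 (3.81 to 5.98). In the density table it is split in a pair of loci, with 2.87 and 2.08 FPKM in HD and 0 and 0.101 in LD. Bin2 itself had 17.6 FPKM in HD+LPS and 18.3 in HD, and 20.3 in HD and 15.7 in LD. Loci of both sets beyond the fixed rule (those by Efna1, Socs5 and Map4k3) were chosen after their values were seen.

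Position was not used to choose the members. Of the density members, 29 (4.23%) overlapped a row with a symbol, 382 (55.8%) lay within 5 kb of one and 274 (40.0%) farther away, 20 of them over 50 kb. The LPS table gave 31 (4.04%), 416 (54.2%) and 320 (41.7%), 24 of them over 50 kb. Of the rows with a symbol of 1 FPKM or more, 65.4% and 65.0% overlapped or lay within 5 kb of another named locus. Without predicted, clone-named and small RNA genes, 323 of 685 and 346 of 767 members overlapped or lay within 5 kb of a named row, and at 1 kb 177 and 191 did. The named rows within 5 kb of a member were mostly expressed, 305 of 382 (79.8%) and 328 of 416 (78.8%) at 1 FPKM or more. Beyond 5 kb it was 155 of 274 (56.6%) and 183 of 320 (57.2%). In 282 of 382 cases (73.8%) and 295 of 416 (70.9%) the nearby locus stood below its named neighbour in both libraries.

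GENCODE M21 annotates more transcripts than the symbols of the tables. Exons of a GENCODE gene overlapped 168 density members (24.5%), among them 59 with exons of protein-coding genes, 49 of intergenic noncoding RNAs and 29 of processed pseudogenes. Another 61 (8.91%) lay in introns only, 109 up to 5 kb before a gene start, 122 up to 5 kb past a gene end and 222 (32.4%) farther off. In the LPS table the numbers were 166 in exons, 68 in introns only, 137 before a start, 143 past an end and 250 farther off. No source used here states the strand, so a locus in an exon or intron may be that gene's own RNA or an antisense one.

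With LPS, loci before gene starts and past gene ends were counted separately. Before a start 44 of 137 (32.1%) were at least 2-fold higher in HD+LPS and 42 (30.7%) lower (median log2 ratio -0.50). Past an end 18 of 143 (12.6%) were higher and 44 (30.8%) lower, with a median of -0.62. Of all LPS members 18.0% were higher and 29.2% lower. Between HD and LD, 19 of 109 (17.4%) before a start and 23 of 122 (18.9%) past an end were higher in HD, beside 16.5% of all density members. These shares are counts of loci, which are not replicates, and were not tested.

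**Figure D4:**
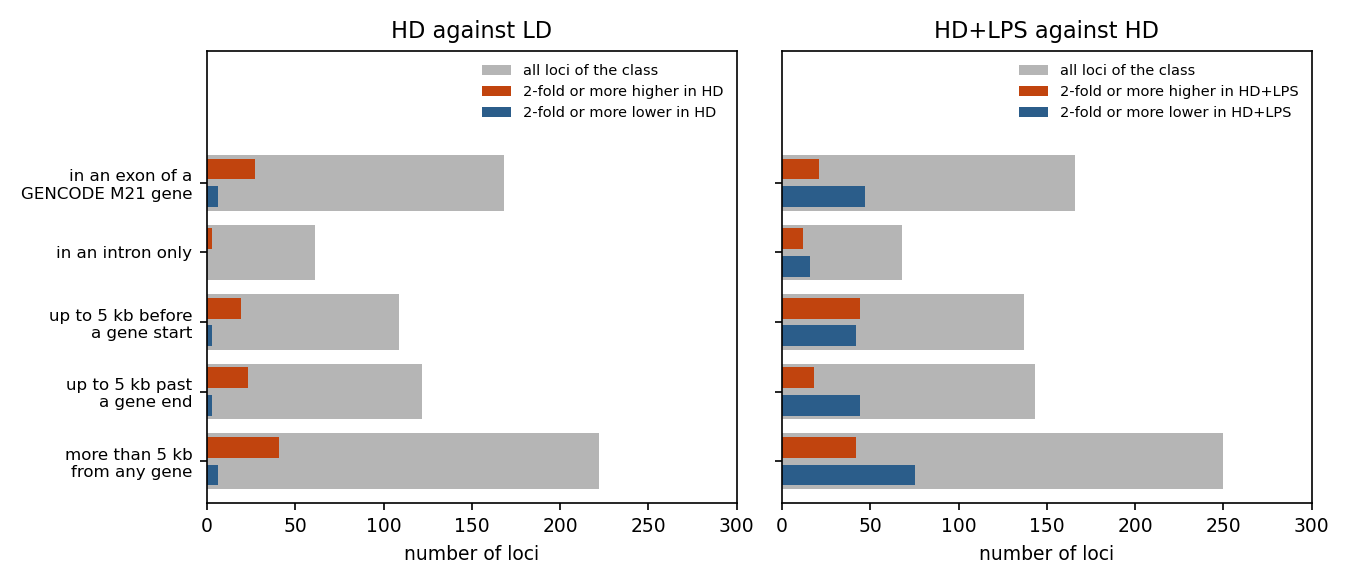
Loci without a symbol by their position relative to GENCODE M21 genes, with HD against LD at left and HD+LPS against HD at right. Grey bars count all loci of a class, red bars those at least 2-fold higher and blue bars those at least 2-fold lower, such as 44 and 42 of the 137 loci before a gene start with LPS.

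Windows of 250 bases before to 50 bases after a RefSeq gene start overlapped 64 density members (9.34%) and 59 LPS members (7.69%). Of the 64, 13 (20.3%) were at least 2-fold higher in HD and 2 (3.12%) lower, beside 16.5% and 2.63% of all members. Of the 59, 8 (13.6%) were at least 2-fold higher in HD+LPS and 20 (33.9%) lower, beside 18.0% and 29.2% of all members. The windows of 3 genes are shown 5′ to 3′, from RefSeq on GRCm38.p6, chosen after the values were seen because a locus with many fragments enters them. Pik3c2a, a lipid kinase gene, has its window on chr7:116443409-116443708, minus strand, and Tpp2, a large peptidase gene, on chr1:43933744-43934043, plus strand. In both, capitals mark the bases inside the locus. Zfand2a, a gene induced by arsenite and heat in mice, has its window on chr5:139484442-139484741, minus strand, and capitals mark the cAMP response element TGACGTCA and the heat shock element core TTCNNGAA, which do not overlap.
Pik3c2a: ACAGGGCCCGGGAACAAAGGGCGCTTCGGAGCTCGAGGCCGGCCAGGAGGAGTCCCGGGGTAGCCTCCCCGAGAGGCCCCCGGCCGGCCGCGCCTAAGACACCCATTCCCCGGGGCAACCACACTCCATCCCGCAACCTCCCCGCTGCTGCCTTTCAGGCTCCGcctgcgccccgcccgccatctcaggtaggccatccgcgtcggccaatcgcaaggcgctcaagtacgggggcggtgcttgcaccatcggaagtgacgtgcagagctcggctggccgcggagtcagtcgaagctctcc
Tpp2: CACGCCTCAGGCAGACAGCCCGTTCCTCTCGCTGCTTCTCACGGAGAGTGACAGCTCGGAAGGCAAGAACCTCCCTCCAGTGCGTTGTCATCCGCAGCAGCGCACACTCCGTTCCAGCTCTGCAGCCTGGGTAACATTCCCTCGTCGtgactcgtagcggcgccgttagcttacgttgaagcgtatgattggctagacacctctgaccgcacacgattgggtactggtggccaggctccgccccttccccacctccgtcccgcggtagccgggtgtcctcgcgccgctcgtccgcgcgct
Zfand2a: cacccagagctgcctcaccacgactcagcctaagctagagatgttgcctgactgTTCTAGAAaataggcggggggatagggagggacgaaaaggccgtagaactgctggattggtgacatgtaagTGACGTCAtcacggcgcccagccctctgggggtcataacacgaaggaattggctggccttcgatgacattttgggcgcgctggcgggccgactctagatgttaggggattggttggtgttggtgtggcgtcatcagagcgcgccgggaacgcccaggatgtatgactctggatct

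A search of both strands found TGACGTCA in 588 of 32851 such windows (1.79%) and, of the 3 shown, in that of Zfand2a alone. The heat shock element core was searched in both of its orders, and TTCNNGAA, found in 8.52% of windows, was likewise in that of Zfand2a alone. The other order GAANNTTC, found in 7.86% of windows, the E-box CACGTG, found in 7.15%, and the core of the interferon-stimulated response element, found in 3.44%, were not among the letters of these 3. A match is a description of the letters and not a site.

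The locus over the Pik3c2a window covers 164 of its bases and exons of AV356131, a noncoding RNA of the same promoter. It had 22.1 FPKM in HD and 6.2 in LD, on 210 and 61 fragments, a ratio of 3.56 (2.67 to 4.82), and 10.8 FPKM in HD+LPS and 20.1 in HD, a ratio of 0.537 (0.414 to 0.690). Pik3c2a shares a row with Rps13 in the tables, at 1715 FPKM in HD and 1251 in LD. The locus over the Tpp2 window covers 147 of its bases and overlaps an exon that GENCODE gives to Tpp2. It had 6.21 FPKM in HD and 1.68 in LD, a ratio of 3.71 (2.62 to 5.34), and 3.61 in HD+LPS and 5.29 in HD. Whether it is RNA of Tpp2 itself was not tested. Tpp2 had 22.8 FPKM in HD and 29.4 in LD. The locus entering the Zfand2a window covers 39 of its bases and had 8.31 FPKM in HD+LPS and 1.23 in HD, and Zfand2a had 52.3 in HD+LPS and 10.9 in HD.

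The nearest named gene, at whatever distance, was seldom past 2-fold the same way as the locus. Of the 113 members higher in HD, 5 (4.42%) had such a gene nearest, beside 3.80% of all members and 3.61% of named rows higher in HD. Here and below, the share of named rows leaves out neighbours at the same position, while the shares of members count them. Bhlhe41, a repressor gene of the circadian clock, was 12055 bases away, and the other 4 were within 5 kb of Efna1, Tnfrsf9, H2bc4 and B230312C02Rik. Of the 18 lower in HD, 0 did. The locus 2332 bases from Tnfrsf9, which encodes the co-stimulatory receptor CD137, overlaps an exon of Camta1 in GENCODE and had 1.03 FPKM in HD with 0 in LD, and Tnfrsf9 had 38.4 FPKM in HD and 1.55 in LD.

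With LPS, 20 of the 138 members higher in HD+LPS (14.5%) had a nearest named gene higher by 2-fold, beside 6.91% of all members and 8.70% of named rows higher in HD+LPS. Of the 20, 6 overlapped that gene's row, 6 lay within 5 kb and 8 farther away, and they fill 16 distinct positions. The 6 that overlapped share their position with that gene, so the rule for named rows would set them against another gene. Near Atf3, a stress-induced repressor of Toll-like receptor targets, a pair of intronic loci had 1.36 and 1.67 FPKM in HD+LPS and 0.182 and 0.25 in HD, and Atf3 had 415 FPKM in HD+LPS and 69.1 in HD. A locus 2520 bases from Gdf15, a stress-induced cytokine of the TGF-beta family, had 4.29 FPKM in HD+LPS and 0.223 in HD, and Gdf15 had 69.3 in HD+LPS and 2.68 in HD. Loci 19062 and 37603 bases from Odc1, the first enzyme of polyamine synthesis, had 16.7 and 1.62 FPKM in HD+LPS and 2.16 and 0 in HD, with Odc1 at 1470 FPKM in HD+LPS and 167 in HD. One 12789 bases from Zbp1, a sensor of left-handed nucleic acid, had 1.21 FPKM in HD+LPS with 0 in HD, and Zbp1 had 62.8 FPKM in HD+LPS and 0.13 in HD.

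Of the 224 members lower in HD+LPS, 25 (11.2%) had a nearest named gene lower by 2-fold, 14 of them within 5 kb without overlap and 10 farther away, beside 7.43% of all members and 6.25% of named rows lower in HD+LPS. One 513 bases from Itga4, the alpha 4 integrin, was listed at 0 in HD+LPS with 2.45 FPKM in HD, and Itga4 had 7.97 FPKM in HD+LPS and 30.1 in HD. By Havcr2, the checkpoint receptor TIM-3, a pair had 0 and 0.621 FPKM in HD+LPS and 1.27 and 3.57 in HD, and Havcr2 had 3.18 FPKM in HD+LPS and 10.4 in HD. A locus 5338 bases from Cd300a, an inhibitory receptor of myeloid cells, had 1.55 FPKM in HD+LPS and 8 in HD, and Cd300a had 15.5 in HD+LPS and 41.3 in HD. Adjacent rows can share reads, so such pairs are not independent.

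A list of 102 genes of the LPS response held the nearest named gene of 7 LPS members, of which 3 were higher, by Atf3 and Zbp1, and 1 lower, by the adhesion molecule gene Icam1, where 18.0% and 29.2% of all LPS members were higher and lower. The Icam1 locus was listed at 0 in HD+LPS with 1.60 FPKM in HD, and Icam1 had 33.5 FPKM in HD+LPS and 37.1 in HD. In the density table the list held the nearest gene of 2 members, with 1 of them higher in HD, by Tnfaip2, where 16.5% of all density members were. A list of 45 hypoxia genes held the nearest gene of 0 members in either table.

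Loci also came in rows. Chained at gaps of 5 kb or less, 251 density members fell in 96 groups of 2 or more and 254 LPS members in 96, with 10 and 11 groups of 4 or more. The run with the most members, chr17:29387038-29428683, lies near Fgd2, an exchange factor for Cdc42 found in antigen-presenting cells. Its 9 density members had 1.02 to 4.72 FPKM in HD and 0.632 to 1.59 in LD, and all 9 were higher in HD, 4 of them by 2-fold. Of all density members 72.8% were higher in HD by any amount and 16.5% by 2-fold. The locus at its first position rested on 135 fragments in HD and 31 in LD. In the LPS table its 11 members had 0.445 to 2.37 FPKM in HD+LPS and 0.864 to 4.35 in HD, and 2 of them were higher in HD+LPS. Of all LPS members 35.1% were higher in HD+LPS by any amount. Fgd2 had 8.20 FPKM in HD and 9.89 in LD, and 1.3 in HD+LPS and 7.39 in HD.

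In introns that GENCODE gives to Cd180, a Toll-like receptor homologue that tempers LPS signalling, 8 density members on chr13:102709571-102719381 had 0.736 to 9.96 FPKM in HD and 1.77 to 5.74 in LD, and 4 of the 8 were higher in HD. The 7 LPS members there had 0.763 to 4.90 FPKM in HD+LPS and 1.51 to 9.07 in HD, with 1 higher in HD+LPS. The shares over all members were 72.8% higher in HD than in LD and 35.1% higher in HD+LPS than in HD. Cd180 had 14.5 FPKM in HD and 27.9 in LD, and 16.3 in HD+LPS and 12.8 in HD. Neighbouring loci of a run can be pieces of 1 transcript, so they are not independent, and those in Cd180 cannot be told apart from its unspliced RNA.

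**Figure D5:**
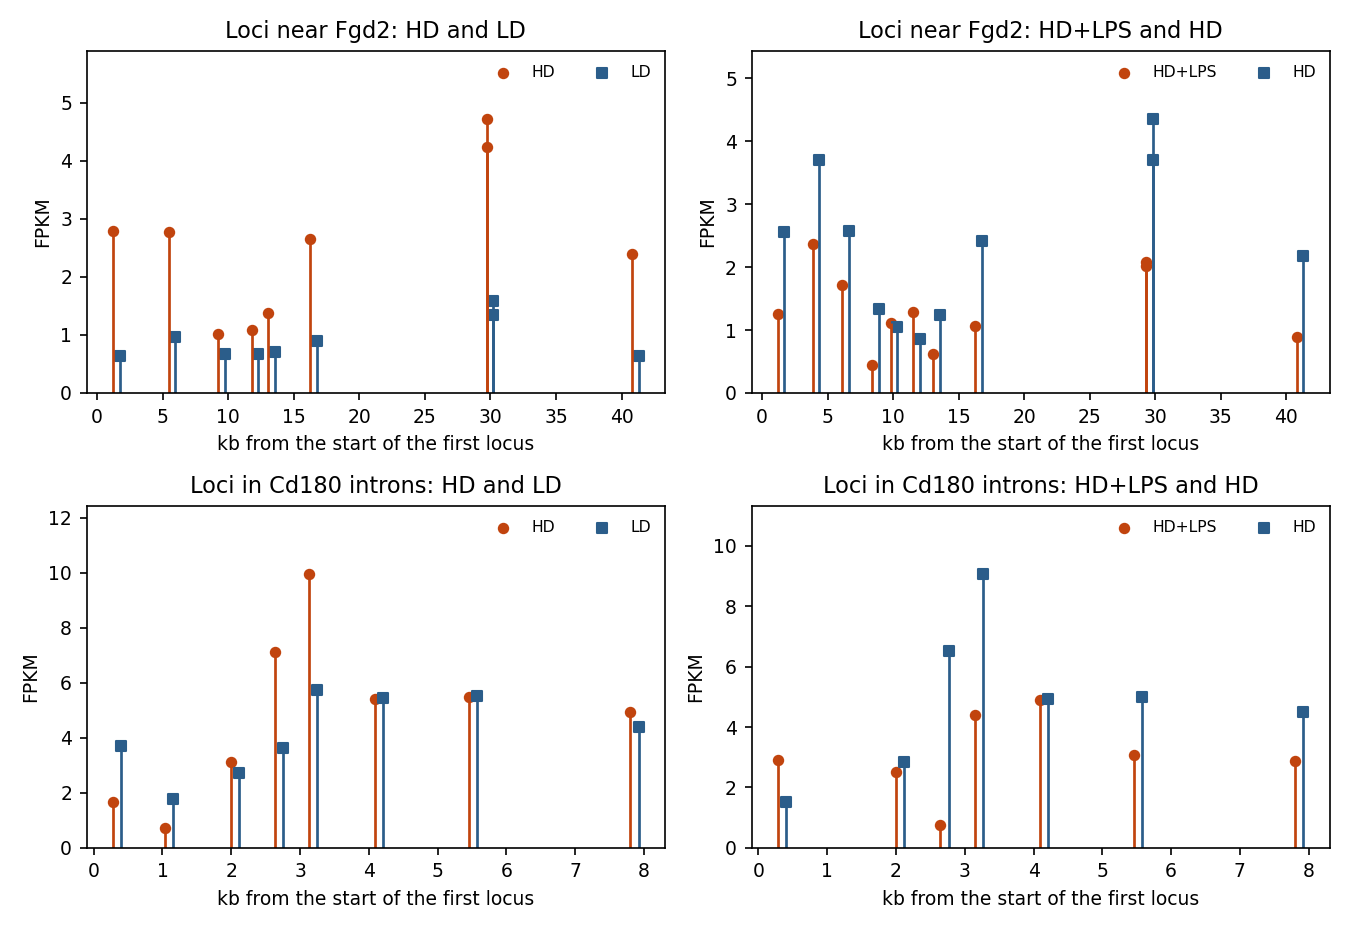
FPKM of each locus in the runs near Fgd2 (top) and in introns of Cd180 (bottom), at its middle in kb from the start of the first locus, with HD and LD at left and HD+LPS and HD at right. Loci that share 1 deposited position are drawn at the same place. All 9 loci near Fgd2 stand higher in HD than in LD, as do 72.8% of all density members.

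Other runs kept to 1 direction. Between LOC115487593 and Cxcr4, the receptor of the chemokine CXCL12, lie 7 members on chr1:128734771-128789302, some sharing 1 position. They had 0.158 to 4.24 FPKM in HD+LPS and 1.69 to 4.38 in HD. Their log2 ratios ran from -1.27 to -0.04, with 0 of the 7 higher in HD+LPS, beside 35.1% of all LPS members. The run is at least 142471 bases from Cxcr4 and 96606 from LOC115487593. GENCODE genes in it or nearest to it are Gm26686 and Gm29599. Cxcr4 had 13.9 FPKM in HD+LPS and 22.6 in HD. On chr2:131420230-131443434, where the nearest annotated gene is the pseudogene Gm14283, 8 members that share 1 position had 1.54 to 9.46 FPKM in HD+LPS and 0 to 1.40 in HD, all 8 at least 2-fold higher. Outside these runs, 4 members between chr1:6425808-6429239 and chr1:6441072-6441654, in or next to the pseudogene Gm19026, had 1.05 to 1.86 FPKM in HD+LPS and 0 to 0.0158 in HD. Their nearest named gene, St18, had 4.28 FPKM in HD+LPS and 1.81 in HD.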

How the data were processed

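Total RNA of 3 RAW264.7 libraries was sequenced on an Illumina protocol, per the labels' protocols. Tools named, without roles, by the submitters' processing notes are Cuffdiff, TopHat2, fastp and FastQC. Builds named there are mm10 and GRCm38. No source used here states the annotation, the strand setting or the number of reads. Per the file headers, the deposited tables give FPKM of both libraries, the authors' log2 ratio, a test statistic, which is a score, and p-values with q-values. Of these the FPKM, the q-values and the significance calls were used. Every per-sample column was used within its own table, since each pair was scaled separately.

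Positions were raised by 1 at the start. After that 90.6% of 26416 named loci equalled a RefSeq gene of GRCm38.p6. Ratios are log2((FPKM + 1)/(FPKM + 1)). Rows are called 2-fold at 1 or -1. Fragments came from a fit of FPKM to locus size (effective size is the size less a fitted mean fragment length of 228 to 247 bases), in Python 3.11.15 with numpy 2.4.6, pandas 2.3.3 and scipy 1.17.1. This was tested on simulated data. Similar transcripts were found with blastn 2.17.0.

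The members, the gene lists and the thresholds were chosen with earlier results of these data known. Named loci were, per comparison, the 8 largest and 8 smallest ratios of members of 5 FPKM or more above 0 in both libraries, the 4 highest listed at 0 in each library and the longest and shortest. To these were added 8 of the highest mean over both tables and 8 past 2-fold in both. Each came with its nearest named gene. Loci by the further genes of the sections on position, windows, neighbours and runs were chosen after their values were seen.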

Additional observations from a re-analysis of the deposited data

How the results depend on the processing

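Each group had 1 library, so none could be left out. No paired analysis was possible because each group has 1 library. Of 86 alternative values 48 stayed near the value reported, 37 moved and 1 reversed. It was the median log2 ratio of HD+LPS over HD, 0.70 at a minimum of 5 FPKM against -0.59, and the cause was not tested. At that minimum 28 of 86 density members were higher and 5 lower (median 0.62), and 63 of 146 LPS members higher and 34 lower. The pseudocount mattered most, by construction for values near 1 FPKM. At 0.1 FPKM 272 members were higher in HD and 65 lower (median 0.69), and 390 were lower in HD+LPS (median -1.04). At 5 FPKM 16 were higher in HD and 4 lower (median 0.16), and 47 were higher in HD+LPS and 17 lower (median -0.20). With no minimum the medians were 0.30 and -0.48. At equal FPKM sums without the 20 highest rows 74 were higher in HD, with a median of 0.28. Within 1 kb of a named row lay 177 and 191 members, within 20 kb 604 and 688. Without predicted, clone-named and small RNA genes 323 and 346 lay within 5 kb, and counting only named rows of 1 FPKM or more 349 and 375. Neighbours moving the same way, 5 and 45 at first, were 9 in the density table when only expressed neighbours counted, and 42 and 100 with a pseudocount of 0.1 FPKM. At 5 FPKM or more the median size was 406 and 585 bases, and 72 of 86 and 73 of 146 members matched between tables. Matching only where the overlap covered at least 50% of each locus gave 467 in either direction. Leaving out unplaced sequences, members listed at 0, members sharing a position or members under 500 bases moved no count by over 1.5 times (at most, 12 members lower in HD without those under 500 bases, against 18), the last 2 settings being chosen after seeing the data. Loci under 500 bases and bundles gave no fragment number, so their counting error is unknown.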
